A study of Mus musculus with 16 samples.

Results

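The sites described here were 2801 distal SETD5-V5 islands that were listed at 6 h of adipogenic induction, were absent at 0 h, and lay on enhancers carrying H3K27ac at both 0 h and 48 h. They are called new sites below. An island is a stretch of the genome that the authors' caller, SICER, found to hold more reads than background. Members were chosen by length, overlap and position from 35573 islands of the 6 h SETD5-V5 RepA list. An island had to be shorter than 20000 bp, to overlap by at least 1 bp an island of 6 h SETD5-V5 RepB, of H3K4me1 at 0 h and of H3K27ac in all 4 empty-vector libraries, and to overlap no 0 h SETD5-V5 island of RepA or RepB. Its midpoint had to lie outside every annotated promoter, taken as 1000 bp upstream to 100 bp downstream of a transcript start. Islands that pass this are called distal, but only the midpoint was tested, so an island can still reach over a promoter. Because these lists selected the members, their presence in empty-vector H3K27ac, SETD5-V5 and 0 h H3K4me1 lists is given only as a description.

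All 16 ChIP-seq libraries came from 3T3-L1, a mouse preadipocyte line that turns into adipocytes under MDI, a mixture of insulin, dexamethasone and isobutylmethylxanthine. H3K27ac was profiled in cells carrying an empty retrovirus and in cells carrying a retrovirus for SETD5 with a V5 tag, the latter called SETD5 cells below, on day 0 (0 h) and day 2 (48 h) with 2 libraries per condition, RepA and RepB, and the V5 tag was profiled at 0 h and 6 h with 2 libraries each. H3K4me1 (0 h and 48 h) and endogenous SETD5 (0 h and 6 h, antibody IgG-F2104) had 1 library per time. The SETD5-V5 protein came from a transgene and was present beside the endogenous protein, and a V5 ChIP in empty-vector cells was not analysed here. The labels name the SETD-V5 virus for the H3K4me1 libraries, whereas the study's text presents H3K4me1 and endogenous SETD5 as profiled in 3T3-L1 without naming a virus. The labels give "-" as the virus of the RepA V5 libraries, and the cells of these libraries are therefore uncertain.

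SETD5 is a SET-domain protein that occurs with the NCoR-HDAC3 corepressor, whose deacetylase removes acetyl groups from histones. Enhancers are distal regulatory elements: H3K4me1 marks them when they are primed or active, and H3K27ac is added when they are active. In adipogenesis, glucocorticoid, cyclic AMP and insulin signals act within hours on factors such as AP-1 and C/EBPβ, and later C/EBPα and PPARγ open the adipocyte programme. The question put to the sites was how H3K27ac on these already acetylated enhancers looked at 0 h and at 48 h, with and without the transgene. These times do not bracket the arrival of SETD5-V5. The V5 libraries cover 0 h and 6 h only, and the 0 h lists already held SETD5-V5 islands at other sites. The paper reports that SETD5-V5 binding at Cebpa and Pparg enhancers became very low before the later H3K27ac time. It also reports a loss of the protein after an early rise. The 48 h libraries are therefore not read as a state with SETD5-V5 bound.

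Taken in this order, the overlap with RepB removed the most islands. Of the 35573 islands, 34648 were shorter than the limit, 21752 of these overlapped RepB, 14069 had H3K4me1, 10136 also had H3K27ac in both empty-vector libraries at 0 h and 8294 in both at 48 h. Of these 8294, 3041 had no SETD5-V5 island at 0 h and 2801 of those were distal. New sites were compared with 4768 distal islands that met the same conditions but overlapped a 0 h SETD5-V5 island, called sites bound at 0 h, and with 1429 active enhancers that overlapped no SETD5-V5 island, called unbound enhancers. Unbound enhancers were taken as H3K4me1 islands of the 0 h library, so they are shorter, with a median of 2000 bp, and were defined by a 0 h mark.

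Near the limits of the rule, the longest member was a 19600 bp island at Rps15a +6 kb, and the shortest island that length alone kept out was a 20000 bp island at She +36 kb. Sites are named by the protein-coding gene with the nearest transcript start and the signed distance of the midpoint from that start. Length alone kept out 20 islands and the promoter condition alone 240. In 35 members the smallest overlap with a required list was 200 bp or less, which is 1 window of the caller.

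The 120 bases with the most matches to AP-1, C/EBP, TEAD and glucocorticoid receptor motifs are shown for 8 sites, with matches in capitals. Coordinates are mm9 (NCBIM37). Tll1 -196 kb and Ism1 +108 kb had the highest SETD5-V5 scores, Rxra -7 kb and Cebpa +8 kb lie beside genes of adipogenic factors, Abcb11 +16 kb and Myc -471 kb had no H3K27ac in SETD5 cells at 48 h, and Sec14l1 -31 kb and Glis3 +13 kb also carried endogenous SETD5 at 6 h. They were picked from the named sites after their values were seen.
Tll1 -196 kb (chr8:66875633-66875752, plus strand): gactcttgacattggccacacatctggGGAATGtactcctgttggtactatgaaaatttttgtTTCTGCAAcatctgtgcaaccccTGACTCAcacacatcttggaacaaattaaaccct
Ism1 +108 kb (chr2:139603891-139604010, plus strand): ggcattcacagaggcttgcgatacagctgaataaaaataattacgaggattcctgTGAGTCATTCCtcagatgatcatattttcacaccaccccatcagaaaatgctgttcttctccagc
Rxra -7 kb (chr2:27522804-27522923, plus strand): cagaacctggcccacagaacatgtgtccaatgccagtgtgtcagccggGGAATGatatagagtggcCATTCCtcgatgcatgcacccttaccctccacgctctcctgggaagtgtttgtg
Cebpa +8 kb (chr7:35911705-35911824, plus strand): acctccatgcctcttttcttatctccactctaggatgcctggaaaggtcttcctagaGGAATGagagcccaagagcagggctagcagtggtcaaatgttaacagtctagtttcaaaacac
Abcb11 +16 kb (chr2:69160881-69161000, plus strand): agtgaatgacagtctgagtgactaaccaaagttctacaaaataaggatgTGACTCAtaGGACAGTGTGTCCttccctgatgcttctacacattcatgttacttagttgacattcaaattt
Myc -471 kb (chr15:61346405-61346524, plus strand): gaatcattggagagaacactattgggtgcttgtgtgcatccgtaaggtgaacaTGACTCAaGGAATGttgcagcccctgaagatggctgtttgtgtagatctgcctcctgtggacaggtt
Sec14l1 -31 kb (chr11:116943403-116943522, plus strand): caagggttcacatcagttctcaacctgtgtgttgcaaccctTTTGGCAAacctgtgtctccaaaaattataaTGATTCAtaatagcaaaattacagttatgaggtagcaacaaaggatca
Glis3 +13 kb (chr19:28361907-28362026, plus strand): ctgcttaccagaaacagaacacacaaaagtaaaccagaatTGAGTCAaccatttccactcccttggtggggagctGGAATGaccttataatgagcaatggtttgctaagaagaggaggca
In the Ism1 window the AP-1 match and the TEAD match share 1 run of letters, and in the Abcb11 window an AP-1 match stands beside the only glucocorticoid receptor match of the 8 windows. The Cebpa window holds a single TEAD match, and the whole 3400 bp island there holds 2 C/EBP matches, 4 TEAD matches and 0 AP-1 matches.

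New sites were shorter and scored lower than sites bound at 0 h. Their islands in RepA had a median length of 4800 bp (range 400 to 19600 bp), against 7400 bp at sites bound at 0 h. The SICER score ranks islands within 1 list, and at the median new site 29.8% of the RepA list scored higher, against 14.6% at the median site bound at 0 h. In RepB the overlapping SETD5-V5 islands had a median of 4200 bp. Tll1 -196 kb (chr8:66873001-66888000, 15000 bp) led the members with a score of 1018, and 1.31% of the list scored higher. It was followed by Ism1 +108 kb with 801, Slc16a11 -17 kb with 734, Auh +106 kb with 694, Ly6a +1 kb with 617 and Arhgap29 -41 kb with 611.

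New sites lay apart from earlier binding in most but not all cases. The median distance to the nearest 0 h SETD5-V5 island was 32.2 kb, and 1119 sites (39.9%) were more than 50 kb away. Within 5 kb of such an island lay 418 sites (14.9%). The 0 h lists held fewer islands than the 6 h lists, 16054 and 6666 against 35573 and 27220, so absence at 0 h means below the threshold of 2 shorter lists, and a weaker earlier signal cannot be told apart from none.

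By position, new sites were more often intergenic than other SETD5-V5 islands. Intergenic midpoints made up 51.6% (1444 of 2801) of new sites, introns 44.6% (1250) and exons 3.82% (107), whereas 37.8% of sites bound at 0 h and 40.2% of all 6 h islands were intergenic. The median distance to the nearest protein-coding start was 35.1 kb for new sites, 20.4 kb for sites bound at 0 h, 38.9 kb for new sites with H3K4me1 and no H3K27ac, and 39.6 kb for new sites with no enhancer mark. New sites were nearest to 1914 genes, of which 1434 had 1 site, 480 had at least 2 and 202 at least 3. Rad51l1 (a recombination gene) had 14 and Zeb2 (a zinc-finger repressor) had 11, each of them over 50 kb from the start, and 5 genes including Acvr2a (an activin receptor), Ptgfr (the prostaglandin F receptor), Trps1 and Vav3 had 9. Under 5 kb from a start lay 533 new sites (19.0%), the same share as among all distal 6 h islands (19.0%). It was 29.8% at sites bound at 0 h, 7.22% at new sites with H3K4me1 alone and 5.45% at new sites without marks. All 6 h islands, which include those at promoters, gave 25.1%. Only 1634 sites lay within 50 kb of a start, and the nearest gene need not be the one an enhancer acts on.

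Most new sites carried H3K27ac in SETD5 cells too. These 4 libraries were not used by the rule. At 0 h 96.2% of new sites overlapped an H3K27ac island in RepA and 95.5% in RepB, and at 48 h 97.9% and 98.1%. The 48 h values were higher than both 0 h values, with a mean difference of 2.07 percentage points, and the exact two-sided permutation test gave p = 0.333, the smallest p that 2 against 2 libraries allow. Both 48 h lists covered 2721 new sites (97.1%), against 61.8% of all 6 h SETD5-V5 islands. Both 0 h lists covered 2634 (94.0%), against 57.3%. The rule required H3K27ac in 4 empty-vector libraries, so nothing is read from this gap.

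New sites were also compared with the other enhancers in this share. In SETD5 cells the share with H3K27ac was lower at new sites than at sites bound at 0 h in 4 of 4 libraries. Differences were -3.16 and -3.81 percentage points at 0 h and -1.37 and -1.17 at 48 h (mean -2.38 ± 1.31, SD, n = 4, exact sign-flip permutation p = 0.125, the smallest possible). When islands scoring under the median of their own list were left out, the mean difference was -15.6 points. Against unbound enhancers it was higher in 4 of 4 libraries, by 4.37 and 5.89 points at 0 h and by 10.1 and 9.97 points at 48 h (mean 7.58 ± 2.90, SD, n = 4, exact p = 0.125). This direction depended on what counted as overlap: when at least 50% of a region had to be covered, the mean difference from unbound enhancers was -6.37 points (exact permutation p = 0.5). Median lengths were 2000 bp for unbound regions, 4800 bp for new sites and 7400 bp for sites bound at 0 h. The n = 4 in these comparisons pools 2 libraries at 0 h with 2 at 48 h. Each SD therefore includes the difference between times, and replication within a time is 2.

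The acetylated part of the sites was measured in bases, since the share of sites was close to its ceiling at both times. In SETD5 cells H3K27ac islands covered 50.2% and 55.3% of the bases of new sites at 0 h, and 58.9% and 62.3% at 48 h. Both 48 h libraries were higher than both 0 h libraries, by 7.82 points on average (52.8 ± 3.61 to 60.6 ± 2.38, SD, n = 2 each, exact permutation p = 0.333). In empty-vector cells the cover went from 58.3% and 52.4% to 65.2% and 61.6%, a difference of 7.99 points, given as a description because presence in these lists was required. The libraries as a whole covered 109 and 120 Mb at 0 h and 110 and 121 Mb at 48 h in SETD5 cells.

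**Figure D1:**
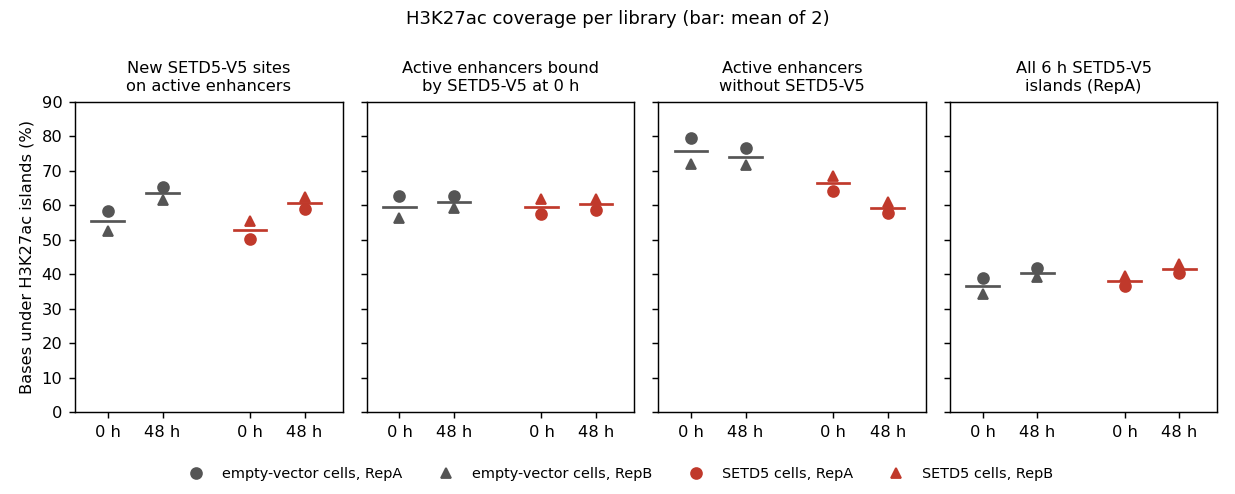
Percentage of bases under H3K27ac islands (vertical axis) in each library at 0 h and 48 h, for new sites, sites bound at 0 h, unbound enhancers and all 6 h SETD5-V5 islands; points are libraries and bars the mean of 2. At new sites both 48 h points lie above both 0 h points in each cell line, whereas at unbound enhancers of SETD5 cells both 48 h points lie below both 0 h points.

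Sites bound at 0 h did not show the same step. Their covered bases in SETD5 cells were 57.4% and 61.7% at 0 h and 58.7% and 61.8% at 48 h, a difference of 0.739 points (exact permutation p = 0.667). New sites minus sites bound at 0 h gave -7.15 and -6.34 points at 0 h and 0.252 and 0.432 points at 48 h. This change of 7.08 points left no overlap between times, and its exact permutation p was 0.333, again the smallest possible. Unbound enhancers went the other way in SETD5 cells, from 64.2% and 68.4% to 57.7% and 60.9% (-6.99 points, exact permutation p = 0.333), and over all 6 h islands cover was 3.67 points higher at 48 h. With new sites restricted to islands under 5000 bp (1466 sites) the difference between times was 3.11 points and the libraries overlapped (exact permutation p = 0.667).

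H3K27ac islands over new sites were compared in length at each site, taking the longest overlapping island. In SETD5 cells 964 sites (34.4%) had a longer island in both 48 h libraries than in both 0 h libraries, and 627 (22.4%) had a shorter one. Over all 6 h islands these shares were 21.8% and 20.5%. Of all 6 h islands 24.4% had no H3K27ac in any of the 4 SETD5-cell lists, against 0.143% of new sites. Such regions cannot be longer or shorter, so the rule favours calls in both directions at new sites. In empty-vector cells 989 sites (35.3%) were longer and 606 (21.6%) shorter at 48 h, against 22.4% and 18.9% of all 6 h islands. The 2 cell lines shared 611 sites that were longer in both, against 13.0% of all 6 h islands, and 351 that were shorter in both, against 12.4%. These amount to 21.8% and 12.5% of new sites. An island that grew in empty-vector cells and shrank in SETD5 cells was found at 38 sites (1.36%), against 0.995% of all 6 h islands. Among sites bound at 0 h the balance was turned, with 22.8% longer and 30.9% shorter in SETD5 cells.

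SETD5 cells had shorter H3K27ac islands than empty-vector cells at many new sites, before MDI as well as after it. At 48 h 877 sites (31.3%) were shorter in both SETD5 libraries than in both empty-vector libraries and 435 (15.5%) were longer, against 17.3% and 15.2% of all 6 h islands. At 0 h 681 (24.3%) were shorter and 322 (11.5%) longer, against 10.1% and 10.5% of all 6 h islands. The rule required islands in empty-vector cells only, which favours longer islands there, and the same holds for the parts that share this requirement. At 48 h the shorter share was 27.1% at sites bound at 0 h and 44.8% at unbound enhancers. Median lengths at new sites were 3600 and 3200 bp in empty-vector cells and 3000 and 3400 bp in SETD5 cells at 48 h, so the medians of the cell lines overlapped. When islands scoring under the median of their own list were left out, the 48 h counts were 675 shorter and 585 longer. RepA carried most of the imbalance at 48 h: RepA alone gave 1821 shorter and 802 longer sites, and RepB alone 1323 and 1279. Whole lists differed in the same way. At 48 h the median island of the full RepA list was 2800 bp in empty-vector and 2000 bp in SETD5 cells, against 2400 and 2200 bp in RepB.

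**Figure D2:**
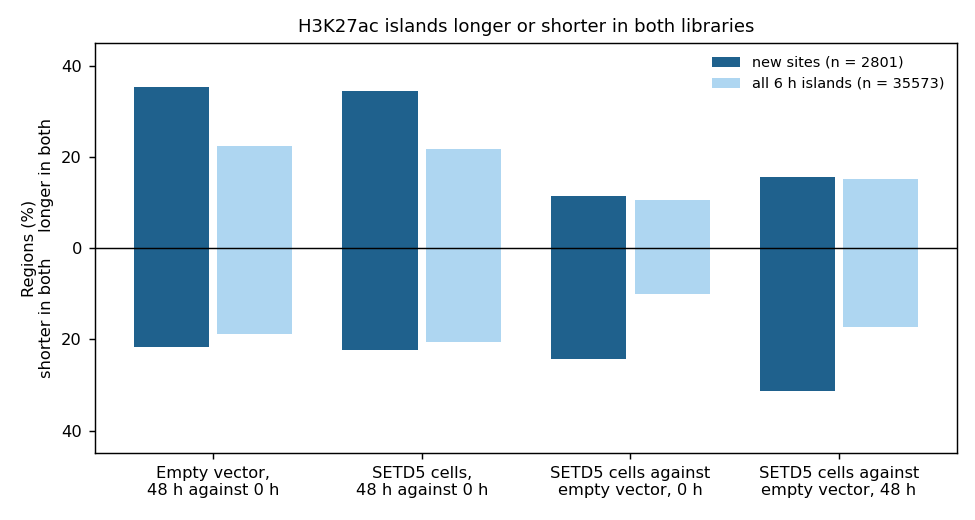
Percentage of regions (vertical axis) whose H3K27ac island was longer (upward bars) or shorter (downward bars) in both libraries of a condition than in both of the other, for 2801 new sites (dark) and all 35573 6 h islands (light). The dark bars reach 35.3% and 34.4% upward for the time comparisons, and 24.3% and 31.3% downward for SETD5 against empty-vector cells at 0 h and 48 h. Regions without H3K27ac in every compared library count in neither direction, and they are more common among all 6 h islands than among new sites.

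The sites with growing and shrinking islands also differed in marks that the rule did not use. Among the 611 sites longer in both cell lines 92.8% carried H3K4me1 at 48 h, and among the 351 shorter in both 72.9% did. Endogenous SETD5 at 6 h overlapped 27 (4.42%) of the first set and 4 (1.14%) of the second. Their median SETD5-V5 lengths were 5400 and 4200 bp, and longer islands overlap others more readily. The median distance to the nearest start was 34.6 kb and 54.9 kb.

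H3K4me1, measured in 1 library at 48 h, was listed at 2346 new sites (83.8%, 95% Wilson interval 82.3 to 85.1), against 59.1% of all 6 h islands. It was listed at 91.7% of sites bound at 0 h and at 72.4% of unbound enhancers. The interval covers the sampling of sites only, and a single library has no replicate check.

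Endogenous SETD5 was found at few new sites. At 6 h it overlapped 91 (3.25%, Wilson interval 2.65 to 3.97). This is below the 6.74% of all 6 h SETD5-V5 islands, the 5.32% of distal ones and the 15.0% of sites bound at 0 h. It was above the 0.783% of new sites with H3K4me1 alone, the 1.61% of new sites without marks and the 1.05% of unbound enhancers. At 0 h it overlapped 20 (0.714%, interval 0.463 to 1.1), against 3.51% and 7.68%. The endogenous lists held 3293 and 2132 islands. Presence at 6 h and absence at 0 h was found at 82 sites, which is 2.93% of new sites against 4.20% of all 6 h islands. Among distal 6 h islands, the closer set, it was 3.17%. The 6 with the highest SETD5-V5 score were Sec14l1 -31 kb, Glis3 +13 kb, Eif3g +5 kb, Nus1 +2 kb, Kifc5b -28 kb and Gprc5b +4 kb. At Gprc5b (a membrane receptor gene) H3K27ac islands went from 4600 and 4400 bp to 20400 and 21800 bp in empty-vector cells, and from 4800 and 4600 to 8000 and 8200 bp in SETD5 cells. All 4 libraries at 48 h were longer than all at 0 h, and the SETD5 libraries at 48 h lay below the empty-vector ones without overlap.

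Few sites had H3K27ac at a single time in SETD5 cells. It was in neither 48 h list at 34 sites (1.21%), against 31.5% of all 6 h islands. The share was 0.378% at sites bound at 0 h and 8.12% at unbound enhancers. At 55 sites (1.96%, against 8.56%) it was in neither 0 h list and both 48 h lists, and at 25 (0.892%, against 4.85%) in both 0 h lists and neither 48 h list. Of the 34, the 6 with the highest score were Herc3 +13 kb, Osbpl3 -44 kb, Abcb11 +16 kb, Prok2 -206 kb, Myc -471 kb and Snapc3 -39 kb. At Herc3 (a ubiquitin ligase gene) empty-vector islands were 1600 and 1200 bp at 0 h and 2200 and 1800 bp at 48 h, and SETD5-cell islands were 2000 and 1600 bp at 0 h. At Osbpl3 (an oxysterol-binding protein gene) they were 4600 and 4400 bp, then 2400 and 1600 bp, and in SETD5 cells 4800 and 5800 bp at 0 h. At these 6 sites empty-vector islands at 48 h measured 1600 to 11200 bp, and Myc -471 kb differed in that no SETD5-cell list held it at either time.

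Beside adipogenic factors lay 4 new sites, at Cebpa, Ebf1, Klf6 and Rxra, of the 24 listed genes, and all 4 had longer empty-vector islands at 48 h. A list counts sites whose nearest protein-coding start belongs to a listed gene and lies within 50 kb. Of the 4, 2 were also longer in SETD5 cells. Of all new sites 35.3% were longer in empty-vector and 34.4% in SETD5 cells, and of all 6 h islands 22.4% and 21.8%. The list held 0.143% of new sites, against 0.357% of sites bound at 0 h and 0.253% of distal 6 h islands. Cebpa encodes C/EBPα, a master regulator of adipocytes. At Cebpa +8 kb (chr7:35910801-35914200, intergenic) the empty-vector islands were 4000 and 8400 bp at 0 h and 33000 and 31000 bp at 48 h. In SETD5 cells they were 0 and 4000 bp at 0 h and 1600 and 0 bp at 48 h, where 0 means no listed island. All 4 SETD5-cell values lay at or below the lowest empty-vector value, and each SETD5 time had an island in 1 of 2 libraries. The nearest 0 h SETD5-V5 island was 70.0 kb away. The paper describes this region as a primed enhancer that lacked H3K27ac before induction. It also reports lower H3K27ac there in SETD5 cells at 48 h. Membership here needed at least 1 bp of overlap with a listed H3K27ac island, and both 0 h empty-vector lists held one. Why this differs from the paper's description was not tested. Rxra encodes the partner receptor of PPARγ. At Rxra -7 kb (chr2:27522201-27528000) islands went from 3800 and 11400 bp to 57600 and 40400 bp in empty-vector cells, and from 3000 and 7400 bp to 26000 and 18800 bp in SETD5 cells. Both lines lengthened there without overlap between times, and at 48 h the SETD5 values were below the empty-vector values. At Klf6 -17 kb, near a zinc-finger factor gene induced early in adipogenesis, they went from 3400 and 3400 to 4200 and 6000 bp and, in SETD5 cells, from 3000 and 2600 to 3000 and 1800 bp.

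Genes of mature adipocytes had 5 new sites, at Acsl1, Dgat1, Gpam, Lep and Scd2, of 30 listed genes. All 5 were longer at 48 h in empty-vector cells, against 35.3% of new sites and 22.4% of all 6 h islands. In SETD5 cells 2 were longer and 1 was shorter, against 34.4% and 22.4% of new sites and 21.8% and 20.5% of all 6 h islands. Acsl1 makes fatty acyl-CoA. At Acsl1 -41 kb (chr8:47513601-47516400) empty-vector islands went from 3000 and 1400 bp to 11400 and 10200 bp, and SETD5-cell islands from 1000 and 2200 bp to 600 and 800 bp, so that both lines moved apart without overlap. Dgat1 catalyses the last step of triglyceride synthesis. The Dgat1 site is a 15000 bp island with its midpoint 0.334 kb into the gene, so it spans the start and is not purely distal. H3K27ac islands there went from 2400 and 1400 to 9600 and 9400 bp in empty-vector cells. In SETD5 cells they went from 1800 and 1800 to 7600 and 7400 bp, longer at 48 h in every library. At Scd2 -25 kb, near a stearoyl-CoA desaturase gene, they went from 1600 and 1200 to 6000 and 6800 bp, and from 3200 and 3200 to 4400 and 5800 bp. Gpam catalyses the first acylation of glycerol phosphate. At Gpam -2 kb islands went from 2200 and 3000 to 9200 and 3600 bp in empty-vector cells and stayed between 2200 and 2600 bp in SETD5 cells, where the times overlapped. With 4 and 5 sites, these lists are too small to compare with the rest.

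Among sites with an H3K27ac island in all 4 libraries at 48 h, the largest falls of mean log2 island length from empty-vector to SETD5 cells at that time were at Myc -451 kb (-3.98), Acsl1 -41 kb (-3.96), Socs3 +16 kb (-3.48) and Nov +40 kb (-3.42), chosen for that fall. Sites such as Cebpa +8 kb and Myc -471 kb, with no island in at least 1 SETD5 library, were not ranked. At Myc -451 kb (Myc drives proliferation) islands were 19800 and 10600 bp in empty-vector cells and 1400 and 600 bp in SETD5 cells at 48 h. In SETD5 cells neither 0 h library held an island there, whereas the empty-vector values at 0 h were 3600 and 2200 bp. The neighbouring Myc -471 kb site had 3800 and 2000 bp at 0 h and 11200 and 3600 bp at 48 h in empty-vector cells. At Socs3 +16 kb (Socs3 restrains cytokine signalling) islands were 18400 and 17400 bp against 1600 and 1600 bp at 48 h, and 6200 and 1200 bp against 1400 and 0 bp at 0 h. At Nov +40 kb, near a matricellular protein gene, the 0 h values already differed, 18600 and 11400 bp against 3200 and 2200 bp, so the gap between cell lines preceded induction.

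**Figure D3:**
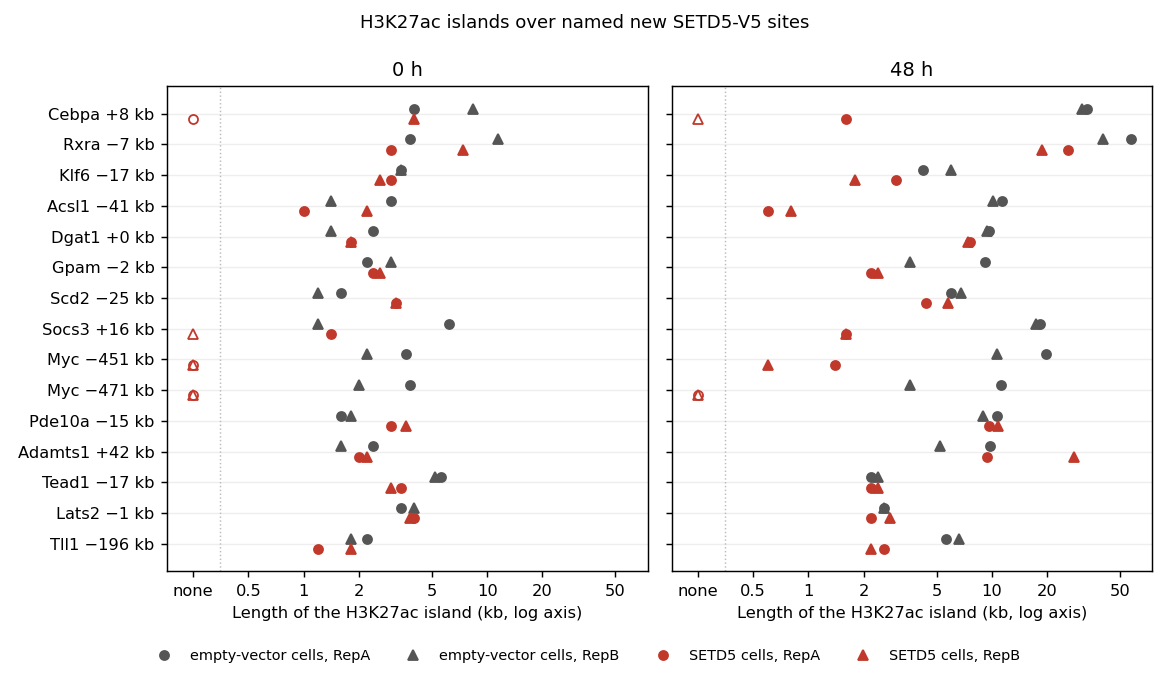
Length of the longest H3K27ac island over 15 named new sites in each library at 0 h (left) and 48 h (right), on a log axis in kb; open symbols at "none" mark libraries with no island. At 48 h Cebpa +8 kb, Acsl1 -41 kb, Socs3 +16 kb and both Myc sites show empty-vector points above the SETD5 points, whereas at Pde10a, Tead1 and Lats2 the lines lie close together.

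Cyclic AMP responsive genes had 11 new sites in 6 of 18 genes, of which 6 were longer and 2 shorter at 48 h in SETD5 cells. The matching shares were 34.4% and 22.4% of new sites and 21.8% and 20.5% of all 6 h islands. Of new sites 0.393% belonged to this list, against 0.126% of sites bound at 0 h and 0.250% of all distal 6 h islands. Prkar2b (a regulatory subunit of protein kinase A) had 4, and Pde4d (a cyclic AMP phosphodiesterase) and Ppargc1a (a coactivator of mitochondrial genes) had 2 each. At Pde10a -15 kb, near another phosphodiesterase gene, islands went from 1600 and 1800 to 10600 and 9000 bp in empty-vector cells and from 3000 and 3600 to 9600 and 10800 bp in SETD5 cells. At Pde4d +16 kb they went from 4000 and 3800 to 8000 and 9000 bp, and from 3200 and 4000 to 5800 and 8200 bp. Both phosphodiesterase sites lengthened in both lines. At Pde4d +33 kb the SETD5 libraries lengthened from 5000 and 5200 to 10000 and 10600 bp, above the 4400 and 4800 bp of empty-vector cells at 48 h.

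Glucocorticoid responsive genes had 4 new sites in 4 of 20 genes. That is 0.143% of new sites, against 0.231% of sites bound at 0 h and 0.149% of distal 6 h islands. At Tsc22d3 +15 kb, near the gene of the glucocorticoid-induced leucine zipper, islands went from 2200 and 2800 to 5200 and 7400 bp in empty-vector cells and from 2400 and 2600 to 7600 and 7600 bp in SETD5 cells. Cytokine, STAT and SOCS genes had 10 in 8 of 25 genes, 7 longer in empty-vector and 3 longer in SETD5 cells, against 35.3% and 34.4% of new sites. This list held 0.357% of new sites, 0.399% of sites bound at 0 h and 0.285% of distal 6 h islands. Cxcl1 (a chemokine) had 2 of them: at Cxcl1 -31 kb islands went from 6200 and 6200 to 7800 and 6600 bp in empty-vector cells, longer at 48 h without overlap, and from 6000 and 5600 to 7600 and 6000 bp in SETD5 cells, where the times met at 6000 bp. Extracellular matrix genes had 15 in 11 of 38 genes, and 6 were longer and 3 shorter in SETD5 cells, against 34.4% and 22.4% of new sites and 21.8% and 20.5% of all 6 h islands. They made up 0.536% of new sites, 0.839% of sites bound at 0 h and 0.440% of distal 6 h islands. At Adamts1 +42 kb, near a secreted protease gene, islands went from 2400 and 1600 to 9800 and 5200 bp, and in SETD5 cells from 2000 and 2200 to 9400 and 28200 bp.

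Genes of the TEAD and YAP pathway had 5 new sites in 4 of 20 listed genes (19 were in the annotation). Of the 5, 4 were shorter at 48 h in both lines, against 12.5% of new sites and 12.4% of all 6 h islands. The other, at Nt5e +35 kb, was shorter in neither, with 5800 and 7200 bp becoming 4000 and 6600 bp in empty-vector cells and 2200 and 3600 bp becoming 4400 and 3400 bp in SETD5 cells. With 5 sites this list, too, is too small to compare with the rest. At Tead1 -17 kb, near a gene of the DNA-binding partner of YAP, islands went from 5600 and 5200 to 2200 and 2400 bp in empty-vector cells and from 3400 and 3000 to 2200 and 2400 bp in SETD5 cells. Lats2 encodes a kinase that restrains YAP. At Lats2 -1 kb they went from 3400 and 4000 to 2600 and 2600 bp and from 4000 and 3800 to 2200 and 2800 bp. The actin cytoskeleton genes Vcl (vinculin) and Filip1l had 1 site each: at Vcl -36 kb empty-vector islands went from 3600 and 3800 to 2600 and 1800 bp, and in SETD5 cells 4000 and 3600 bp became 3600 and 3600 bp.

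No new site had any of the 26 listed preadipocyte and anti-adipogenic factors as its nearest start within 50 kb. By the same count this list held 23 sites bound at 0 h (0.482% of these) and 90 of all distal 6 h islands (0.285%). A site near a listed gene but nearer to the start of another gene was not counted. Growth factor and insulin signalling genes had 8 new sites in 6 of 26 genes, TGF-β and BMP genes 4, clonal expansion genes 3, Wnt genes 3, and AP-1 factor genes and corepressor and acetyltransferase genes 2 each. At Id3 -22 kb (Id3 blocks bHLH factors) islands went from 2400 and 2400 to 6200 and 5000 bp in empty-vector cells and from 1800 and 2200 to 2400 and 2600 bp in SETD5 cells, lengthening in both. At Egfr +27 kb, in the epidermal growth factor receptor gene, islands in SETD5 cells were shorter at 48 h without overlap, 11600 and 8200 bp against 4400 and 5000 bp, and they went from 19600 and 9600 to 9600 and 5800 bp in empty-vector cells.

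Cell identity was checked at promoters. All 12 fibroblast marker genes had H3K27ac in all 8 libraries, and of 17 markers of other cell types 16 had it in none. Lum (a fibroblast proteoglycan) had 1 new site, whose H3K27ac domain measured 15000 to 17800 bp in every library. Pecam1, an endothelial marker, had 2 new sites inside a single empty-vector H3K27ac island of 8200 and 8000 bp at 0 h. At most 4 new sites lay under 1 H3K27ac island of empty-vector RepA at 48 h, where 66 islands held 2 or more, so neighbouring sites are not independent.

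Motifs were counted as exact letters on both strands of each island. The letters were TGANTCA for AP-1, TTGCNNAA for C/EBP, GGAATG for TEAD, GNACANNNTGTNC for the glucocorticoid response element, AGGTCANAGGTCA for the PPAR-RXR repeat, TGTGGTT for RUNX, TCCCNNGGGA for EBF, TTCCNGGAA for STAT and TGACGTCA for the cyclic AMP response element. A match is a description of sequence, not of binding. AP-1 showed 0.443 matches per kb in new sites, 1.38 times the 0.320 of flanks of equal length on both sides. The glucocorticoid response element showed 0.0243 per kb, 1.40 times its flanks, and C/EBP 0.522, 1.13 times its flanks. Unbound enhancers had a similar density of the glucocorticoid response element, 0.0226 per kb. STAT (0.0354 per kb, 1.22 times), EBF (0.0255, 1.16 times) and the cyclic AMP response element (0.00849, 1.11 times) were also denser than in flanks. TEAD (0.616 per kb, 1.05 times), RUNX (0.268, 1.02 times) and the PPAR-RXR repeat (0.00246, 1.03 times) were close to their flanks.

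AP-1 matches were also denser than at sites bound at 0 h (0.359 per kb) and at unbound enhancers (0.322), and similar to new sites without H3K27ac, which had 0.481 with H3K4me1 and 0.472 without any mark. Since long islands hold more of any motif, the central 400 bp were compared as well. AP-1 letters stood in 19.1% of central windows of new sites, in 12.9% of flanks, in 14.2% of sites bound at 0 h, in 20.4% of new sites with H3K4me1 alone, in 22.6% of new sites without marks and in 17.2% of all distal 6 h islands. Glucocorticoid response element letters stood in 1.43% of central windows of new sites (40 of 2801), against 0.660% of flanks and 0.910% of unbound enhancers. They stood in 0.650% of sites bound at 0 h and 0.435% of new sites with H3K4me1 alone. The shares were 0.878% of new sites without marks and 0.971% of all distal 6 h islands. The GC content was 44.6% in new sites, 43.9% in flanks and 45.8% in sites bound at 0 h. Regions are not replicates of a condition, so these densities carry no test.

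**Figure D4:**
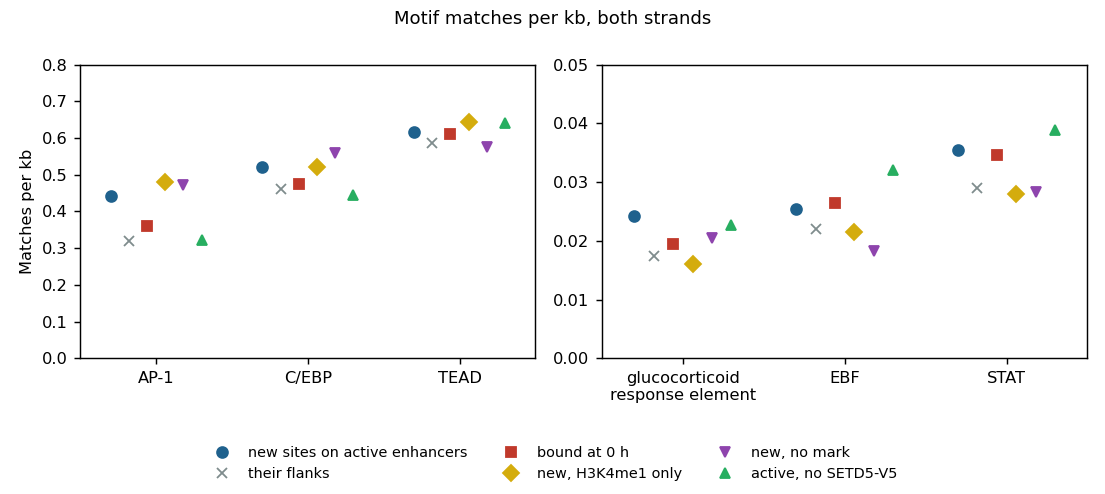
Motif matches per kb (vertical axes, different scales) in new sites, their flanks and 4 other sets of regions. For AP-1 new sites (0.443) lie above flanks, sites bound at 0 h and unbound enhancers, and below both other sets of new sites.

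Sites whose islands lengthened and those whose islands shortened in both lines differed in some motifs. The glucocorticoid response element was matched 124 times in the 611 lengthening sites (0.0312 per kb, 18.3% of sites) and 32 times in the 351 shortening sites (0.0193 per kb, 8.55%). TEAD showed the reverse, 0.607 and 0.687 per kb. The PPAR-RXR repeat was matched 11 times and 1 time, and EBF 117 and 34 times (0.0294 and 0.0205 per kb). AP-1 (0.433 and 0.453) and C/EBP (0.523 and 0.534) differed less. Lengthening sites were longer, which raises the share of sites with a match. Matches per kb varied with length for some motifs. In new sites under 5000 bp they were 0.478 for AP-1, 0.560 for C/EBP and 0.632 for TEAD. In all new sites they were 0.443, 0.522 and 0.616. The glucocorticoid response element had 0.0245 against 0.0243. How far length enters the differences above was not tested.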

How the data were processed

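ChIP-seq island lists of 16 libraries were analysed. Reads had been aligned to mm9 by the authors (ELAND or Bowtie2), who then ran SICER or SICER2 on every library by itself, joining enriched windows of 200 bp across gaps. In the files neighbouring islands lie at least 600 bp apart for histone marks and 800 bp for SETD5. Each deposited list gives positions and a score per island, which served here to rank islands within a list. The files hold no read counts, so depth behind an island is unknown and absence means below threshold. The study's reporting summary gives total reads per library, which differ between times and antibodies and were not used here: fewer for 0 h than for 6 h SETD5-V5, and fewer for endogenous SETD5 than for SETD5-V5. Lists held 31292 to 39949 islands for H3K27ac.

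Members and gene lists were chosen with earlier results of these data known. Overlap meant at least 1 bp. Libraries were the units of exact two-sided permutation tests. The labels call the paired libraries RepA and RepB. No source used here says that letters link samples across conditions, so p-values measure the spread between these samples. Named sites were the 6 with the highest score, up to 3 per gene list within 50 kb of a start, up to 6 without H3K27ac in SETD5 cells at 48 h, up to 6 with endogenous SETD5 at 6 h alone, the genes with most sites, the 4 largest falls of island length, and sites next to the thresholds. For some lists a subset of the named sites is printed. Positions came from GENCODE vM1. Python 3.11.15, numpy 2.4.6, statsmodels 0.14.6, pysam 0.24.0, bedtools, samtools 1.23.1 and matplotlib 3.10.9 were used, and the code was tested on simulated data. Alternatives were a 50% overlap, islands above the median score, equal numbers of islands, a 5000 bp limit, a wider promoter, RepB as the base, each replicate left out and a replicate block.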

Additional observations from a re-analysis of the deposited data

Results flagged for a closer look

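Among the named sites, 3 moved in opposite directions in the 2 cell lines, each without overlap between the 0 h and 48 h libraries, and the difference itself was not tested. At Acsl1 -41 kb the mean H3K27ac island length changed by -900 bp in SETD5 cells and by 8600 bp in empty-vector cells. At Abcb11 +16 kb it changed by -1700 and 1800 bp, and at Herc3 +13 kb by -1800 and 600 bp. Abcb11 +16 kb and Herc3 +13 kb were named because SETD5 cells had no island there at 48 h, so their fall in SETD5 cells follows from that choice. Acsl1 -41 kb lies on the list of mature adipocyte genes and was also named for its large fall from empty-vector to SETD5 cells at 48 h, so its divergence is tied to that choice.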

How the results depend on the processing

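In SETD5 cells the differences between 48 h and 0 h and between new sites and sites bound at 0 h kept their sign under each alternative run, but sizes moved. The share was 8.53 points higher at 48 h with the 50% overlap, 11.2 with islands above the median score and 4.05 with equal numbers of islands. The bases were 10.7, 11.5 and 8.48 points higher, and 3.11 in sites under 5000 bp. The median length was 100 bp longer above the median score and under 5000 bp, and 300 bp longer with RepB as the base. The difference from sites bound at 0 h was -15.6 points above the median score and -4.46 with equal numbers, and that from unbound enhancers 21.4 and 12.2. With the 50% overlap the mean difference from sites bound at 0 h was -3.24 points (exact sign-flip permutation p = 0.5). The 4 libraries then did not all go in 1 direction. Against unbound enhancers the share with H3K27ac kept its sign except at an overlap of at least 50% of the region, where it was -6.37 points. None of these tests could pass 0.05, so only sizes and signs are compared. Without RepA or RepB the difference in share between times was 1.61 to 2.53 points, in bases 6.95 to 8.69 points and in median length 200 bp in both cases, and the share differed from sites bound at 0 h by -2.49 to -2.26 and from unbound enhancers by 7.24 to 7.93 points. With RepA and RepB as a replicate block the differences were 2.07 points, 7.82 points, 200 bp, -2.38 points and 7.58 points (exact paired sign-flip p = 0.5 in each), and the letters share only a letter (correlation of the differences between RepA and RepB at 0 h and 48 h across sites -0.0615). Counts of sites by island length, added after the data were seen, rose with 1 library per condition: 1458 to 1533 longer and 1073 to 1195 shorter at 48 h in SETD5 cells, and 802 to 1279 longer and 1323 to 1821 shorter in SETD5 than in empty-vector cells. Endogenous SETD5 at 6 h was at 2.04% of new sites with the 50% overlap, 0.964% with islands above the median score and 1.84% of sites under 5000 bp. At 0 h it was at 0.393% with the 50% overlap, 0.143% above the median score and 0.421% with RepB as the base. H3K4me1 at 48 h was at 54.1%, 63.4% and 80.0% under the first 3 of these settings. AP-1 matches per kb were 0.549 in central windows, 0.478 in sites under 5000 bp and 0.457 with RepB as the base. Of the sites, 2425 (86.6%) overlapped a member of the RepB rule. The cause of these changes was not tested. With no counts in the lists, a signal below threshold cannot be told apart from none.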
